A study of Canis lupus familiaris with 10 samples.

Results

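The cytotoxic genes of lymphocytes were examined in canine cutaneous histiocytoma (CCH). This benign tumor of canine skin arises from Langerhans cells, the dendritic cells of the epidermis, and often regresses on its own. The members were 10 listed symbols, namely the granzymes GZMA, GZMB and GZMK, perforin (PRF1), NKG7, FASLG, the lectin-like receptors KLRD1, KLRK1 and KLRB1, and CD8A. A row with exactly the listed symbol was found for 9 of the 10 among the 23266 genes of the table. GZMB had no row under its symbol. The row LOC490630 carries the gene ID that RefSeq names GZMB on the newer dog assembly UU_Cfam_GSD_1.0, and its values are given beside the 9 members, but it is not counted among them. All 9 members passed the filter on low values, a normalized read count of at least 10 in at least 5 libraries, which left 12397 genes to be tested.

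The tumors were archived, formalin-fixed and paraffin-embedded (FFPE) specimens of pet dogs, for which no treatment is stated, and their RNA was sequenced near its polyadenylated end with QuantSeq 3′. The early group comprised 5 tumors of group 1 of a histological staging scheme, from dogs aged 0.5 to 5 years (n = 4 with an age given). The late group comprised 5 tumors of group 3, labeled as enriched in lymphocytes, from dogs aged 1.5 to 9 years. The column names of the table give the stage of each library without naming its tumor, so that libraries are numbered 1 to 5 within each stage only to name them.

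A killer lymphocyte destroys its target along 2 routes. In the first, granules with perforin and granzymes are released onto the target cell, perforin opens its membrane, and the granzymes, which are serine proteases, cut proteins inside it. In the second, FASLG on the killer cell engages the death receptor FAS on the target. CD8 T cells recognize the target through the T-cell receptor with CD8 as its coreceptor, whereas lectin-like receptors such as KLRK1 and KLRD1 are used by natural killer (NK) cells and by many CD8 T cells. CD8 T cells enter CCH when the tumor regresses.

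Library depth lay between 2973125 and 4439709 recovered reads. The 9 members together took 186 to 3587 reads in the early and 3421 to 8865 reads in the late libraries. The DV200 values, the labels' measure of RNA integrity in percent, were 64.5 to 71.2 for early and 71.2 to 75.8 for late CCH, and each RNA extraction batch that the study lists held tumors of 1 stage only, so that neither RNA quality nor batch can be told apart from stage. The labels of the tissues were set beside marker genes. The summed normalized read count of 7 T-cell markers (CD3D, CD3E, CD3G, CD2, CD5, CD247 and LCK) was 60.0 to 2140.3 in early and 3675 to 5153 in late CCH. All 7 genes had late values above every early value, which held for 5.91% of all genes tested. The 7 Langerhans and dendritic cell markers with a row in the table summed to 1012 to 2851 in early and 717 to 1063 in late CCH, and CD207, which defines Langerhans cells, had no row under its symbol.

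The first comparison asked which members differed between late and early CCH. Each of the 9 members had a higher mean in late CCH, but only KLRK1 passed the test, with a log2 fold change (log2FC) of 3.30 ± 0.58 (SE). A call required that the p from limma, adjusted with the Benjamini-Yekutieli (BY) procedure, did not exceed 0.05 and that the log2FC reached 1 in either direction. Under this rule 1 of 9 members was called, and it was higher in late CCH. Of all genes tested, 2.17% were called, 1.06% as higher in late CCH. With the less strict Benjamini-Hochberg (BH) adjustment 7 of 9 members were called higher, all but GZMA and KLRB1, against 5.53% of all genes tested. Of the 9 members, 7 had an unadjusted p of at most 0.05 with a higher late level (15.6% of all genes tested), and all 9 had a log2FC of at least 1 (9.27% of all genes tested). The median log2FC of the members was 3.06, against -0.004 over all genes tested. The number of calls depended on the test. At the same BY and fold thresholds, DESeq2, the package that the study used, called 4 members (GZMK, PRF1, KLRD1 and KLRK1) and 810 of all 12397 genes. The edgeR quasi-likelihood test called 0 members and 177 genes. In bulk tissue, fewer cells of a type and less RNA per cell cannot be told apart, so that each value below describes the RNA of the whole section.

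**Figure D1:**
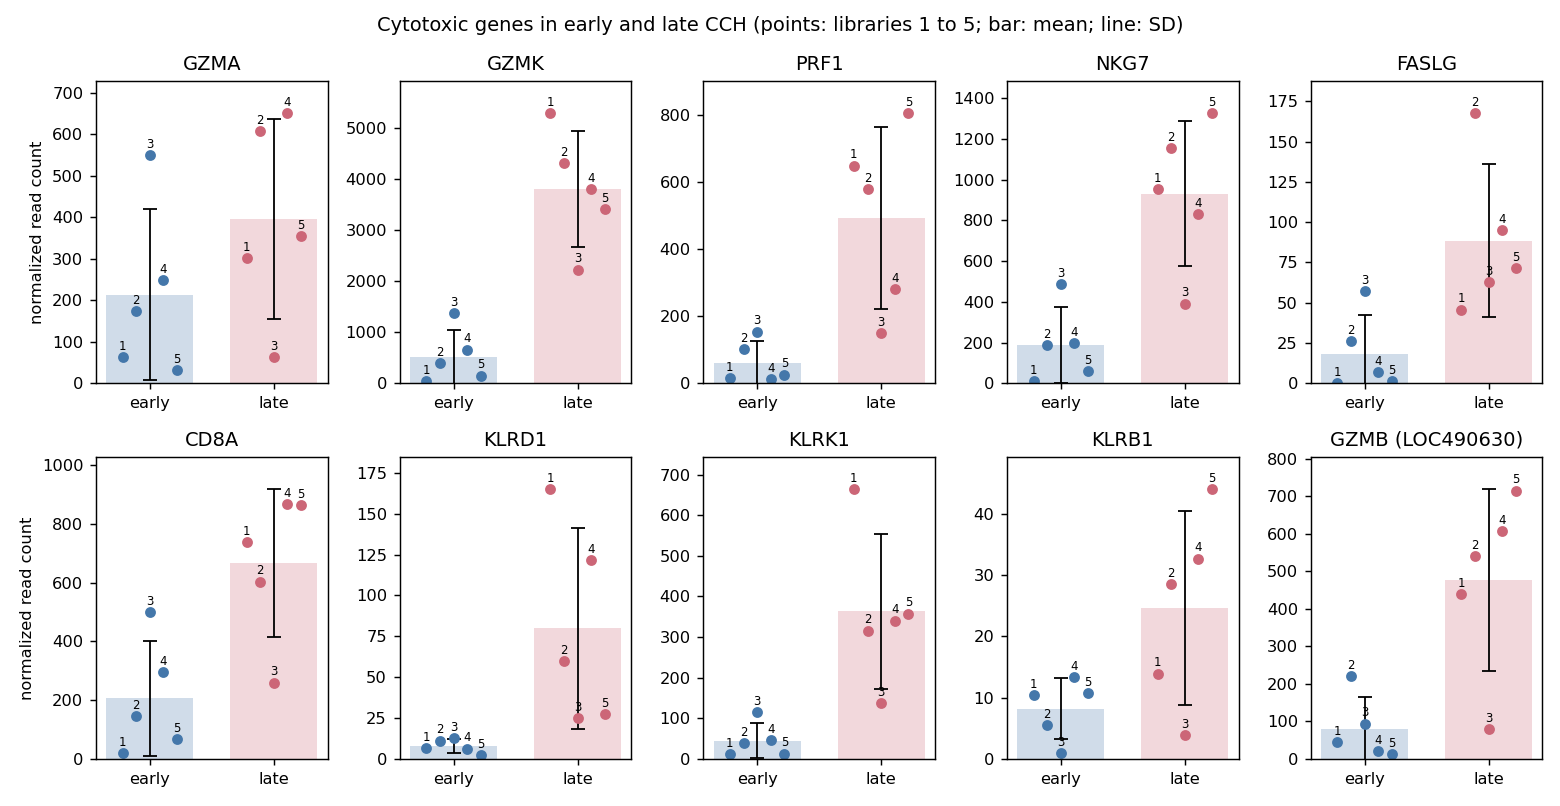
Normalized read counts of the 9 members and of the GZMB row LOC490630 (y axis, linear, a scale of its own for each gene) in the early and late CCH libraries (x axis). Points are libraries with their number, bars are means and lines are the SD over 5 libraries, not drawn below 0. GZMK, KLRD1 and KLRK1 had no overlap between the stages, and late library 3 was the lowest late library for every gene but FASLG.

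On the scale of 3′ read counts, GZMK had the highest mean level of the granzymes in both stages. GZMK encodes a granzyme with trypsin-like activity. Its normalized read count in early libraries 1 to 5 was 41.9, 394, 1368, 658 and 147, and in late libraries 1 to 5 it was 5282, 4310, 2223, 3799 and 3407. All late values lay above all early values, which held for 3 of 9 members (GZMK, KLRD1 and KLRK1) and for 5.91% of all genes tested. The mean went from 522 ± 529 to 3804 ± 1129 (SD, n = 5 each), a ratio of 7.29. The log2FC was 3.63 ± 0.72 (SE), and its BY-adjusted p was 0.0722 with limma, so that GZMK was not called.

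GZMA, the other trypsin-like granzyme of the list, had the smallest log2FC of the 9 members in the main comparison, whereas KLRB1 had it with a pseudocount of 5 and without early library 3. Early libraries 1 to 5 had 62.8, 174, 549, 249 and 32.2 normalized reads and late libraries 1 to 5 had 302, 607, 62.0, 650.3 and 355. The stages overlapped widely, since 2 late libraries exceeded every early library and late library 3 lay below 4 of the 5 early ones. The log2FC was 1.14 ± 0.76 (SE, BY-adjusted p = 1, limma), with a 95% interval from -0.51 to 2.80. Without late library 3 the log2FC was 1.71.

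The GZMB row LOC490630 stands for the granzyme that cuts after aspartate and activates caspases. It had 44.7, 221, 94.1, 21.3 and 11.8 normalized reads in early and 439, 539, 80.4, 606 and 714 in late libraries 1 to 5. All late libraries but library 3 exceeded every early library. Its log2FC was 2.98 ± 0.75 (SE, BY-adjusted p = 0.204, limma).

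PRF1 encodes perforin, the pore-forming protein of the granule. Its early values were 14.3, 101, 154, 12.6 and 25.8, and its late values were 649, 578, 149, 281 and 805 normalized reads. Late library 3 lay just under early library 3, and the other 4 late libraries lay above all early ones. The log2FC was 3.43 ± 0.69 (SE, BY-adjusted p = 0.0756, limma), which did not pass.

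NKG7 encodes a membrane protein of the granule that takes part in its release. In early CCH its values were 9.52, 186, 487, 195 and 61.2 normalized reads, and in late CCH 955, 1154, 391, 830.3 and 1326. Here too late library 3 fell below early library 3, while the other late libraries exceeded every early one. The log2FC was 3.06 ± 0.80 (SE, BY-adjusted p = 0.241, limma).

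FASLG, the ligand of the death receptor FAS, was low. It had no read in early library 1, which allows up to 3 reads or a normalized read count of 2.86, counting error only. The other early libraries had 26.1, 57.0, 7.09 and 1.07 normalized reads, and the late libraries had 45.7, 167, 63.0, 95.1 and 71.3. The late value of library 1 lay under that of early library 3, and the other 4 late values exceeded all early ones. The log2FC of 3.40 ± 0.95 (SE, BY-adjusted p = 0.304, limma) rested on 101 early and 448 late reads.

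KLRK1 is an activating receptor that binds stress-induced relatives of MHC class I molecules. It had 11.4, 39.1, 116, 45.7 and 12.9 normalized reads in early and 664, 316, 137, 341 and 358 in late libraries 1 to 5. Every late library exceeded every early one, although late library 3 and early library 3 were close. The mean rose from 44.97 ± 42.4 to 363 ± 190.2 (SD, n = 5 each), a ratio of 8.07. The BY-adjusted p from limma was 0.0436, near the threshold, and KLRK1 was called in 2 of the 10 fits that each left out 1 library, namely without early library 3 (adjusted p = 0.0221) and without late library 3 (adjusted p = 0.0373). Over all alternatives its adjusted p ranged from 2.24e-05 to 0.147.

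KLRD1 forms receptors for MHC class I molecules with partners of the NKG2 family. Its early values were 6.66, 11.2, 12.7, 6.30 and 2.15 normalized reads, and its late values 165, 59.9, 25.2, 122 and 27.3. The stages did not overlap, but the late libraries fell between 25.2 and 165, and the early ones together held only 43 reads. The log2FC was 2.99 ± 0.59 (SE, BY-adjusted p = 0.0701, limma).

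KLRB1, a lectin-like receptor of NK cells and subsets of T cells, had the lowest mean normalized read count of the members in late CCH. It had 10.5, 5.58, 0.905, 13.4 and 10.7 normalized reads in early and 13.9, 28.5, 3.87, 32.7 and 44.1 in late libraries 1 to 5, from 45 and 122 reads. Early library 3, in which 8 of the 9 members had their highest early value, held the lowest value of KLRB1. The log2FC was 1.41 ± 0.72 (SE, BY-adjusted p = 1, limma), with a 95% interval from -0.14 to 2.97.

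CD8A encodes the alpha chain of the CD8 coreceptor. In early CCH it had 19.99, 145, 501, 297 and 66.6 normalized reads, and in late CCH 738, 604, 260, 869 and 863. Late library 3 lay below 2 early libraries, and the other late libraries exceeded all early ones. The log2FC was 2.29 ± 0.70 (SE, BY-adjusted p = 0.448, limma). The log2FC of CD8B, the beta chain, was 2.21 ± 0.78 (SE, BY-adjusted p = 0.742, limma). On the newer assembly CD8A overlaps the gene LOC111090626, which had 6 early and 21 late reads in the table.

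**Figure D2:**
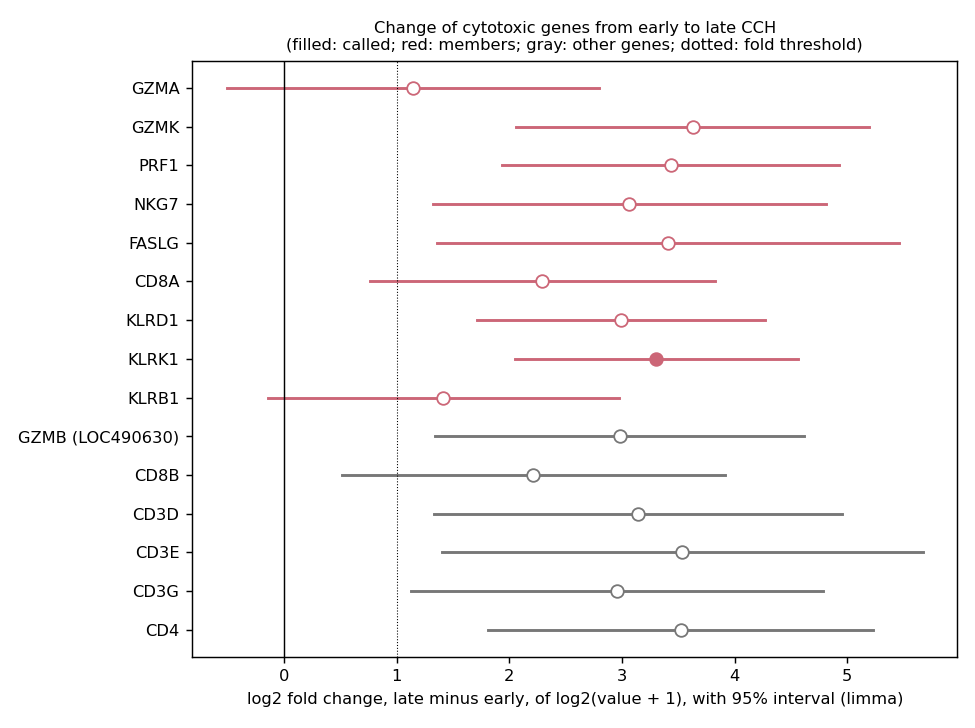
Log2FC of late minus early CCH on the log2(value + 1) scale (x axis) with its 95% interval from limma for the 9 members (red), the GZMB row, CD8B, the CD3 genes and CD4 (gray). The filled symbol marks KLRK1, the only gene shown that was called, and the intervals of GZMA and KLRB1 include 0.

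Most members varied together over the libraries. KLRB1 did not in the early libraries, where it had only 1 to 17 reads each. In the late ones it was lowest in library 3, like most members. Early library 3 had the highest early value in 8 of 9 members, and early library 1 the lowest in 5 of 9. The summed normalized read count of the members was 177, 1082, 3245, 1484 and 359.6 in early libraries 1 to 5, and 8815, 7825, 3313, 7020 and 7256 in the late ones. Early library 3 and late library 3 thus had nearly the same sum. On the scale of 3′ read counts, which do not grow with transcript length, GZMK took 37.5% ± 8.26 of the members' reads in early and 56.6% ± 7.46 in late CCH (SD, n = 5 each).

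When each gene was centered within its stage, the Pearson correlation of log2(value + 1) with the mean of the other members, over the 10 libraries, was 0.93 for KLRK1, 0.92 for CD8A, 0.91 for NKG7, 0.90 for GZMK, 0.87 for GZMA and 0.80 for FASLG. It was lower for PRF1 with 0.67 and KLRD1 with 0.50, and it was -0.23 for KLRB1. The pairs GZMK and CD8A, GZMK and NKG7, and NKG7 and CD8A each reached 0.96. CD3E reached 0.84, CD8B 0.86 and the B-cell gene CD79A 0.47 against the mean of all members. The libraries share their depth and scaling for all genes, and these coefficients are descriptions without a test.

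The genes of the whole table closest to the mean of the 9 members were sought over the same 10 libraries, leaving out symbols that start with LOC. As measured, TMEM176A (r = 0.984), SLAMF7 (r = 0.980), AMPH (r = 0.978), SH2D1A (r = 0.977) and DENND3 (r = 0.976) came first. After centering within the stage, TMEM176A (r = 0.957) and AMPH (r = 0.949) were again the closest, followed by IFIH1 (r = 0.944), UBASH3B (r = 0.938) and JAKMIP1 (r = 0.937). TMEM176A had a mean of 199 in early and 983 normalized reads in late CCH, and its log2FC was 2.53 ± 0.42 (SE, BY-adjusted p = 0.0382, limma). IFIH1 and UBASH3B, among the closest only after centering, had a log2FC between the stages of 0.24 and 0.10. All these genes were picked as the highest coefficients of the genes searched, over only 10 libraries, and their correlation was not tested.

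The second comparison asked whether the members differed between the stages by more or less than the T-cell receptor complex. CD3D, CD3E and CD3G, which encode the signaling chains of this complex, had log2FC values of 3.14, 3.53 and 2.96 (BY-adjusted p = 0.252, 0.308 and 0.332, limma). Each gene was therefore expressed relative to the mean log2 level of these 3 genes in the same library, and all other genes past the filter were fitted again. None of the 9 members was called in this fit, and none had an unadjusted p of at most 0.05 with limma. The SE came from a trend over all genes and was 1.17 (GZMK) to 1.33 (KLRB1) for the members. With the variance of each gene alone it was 0.32 for GZMK, 0.34 for NKG7 and 0.39 for CD8A. Among the members it was larger only for KLRB1, with 1.54. In the fit with the trend, CD244 was not called at a relative difference of -4.45, whereas KRT1 was at -4.59 (BY-adjusted p = 0.0628 and 0.0480, limma). This fit could thus not call differences of the size seen in the members. The lack of calls does not show that the members changed as CD3 did. Of all genes tested, 2.07% were called lower and 87% had an unadjusted p of at most 0.05 with a lower late level, since the CD3 genes themselves were higher by 3.21. The median relative difference was -0.15 for the members and -3.21 for all genes tested. Of the members, 5 of 9 were relatively lower in late CCH, against 99.4% of all genes tested.

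**Figure D3:**
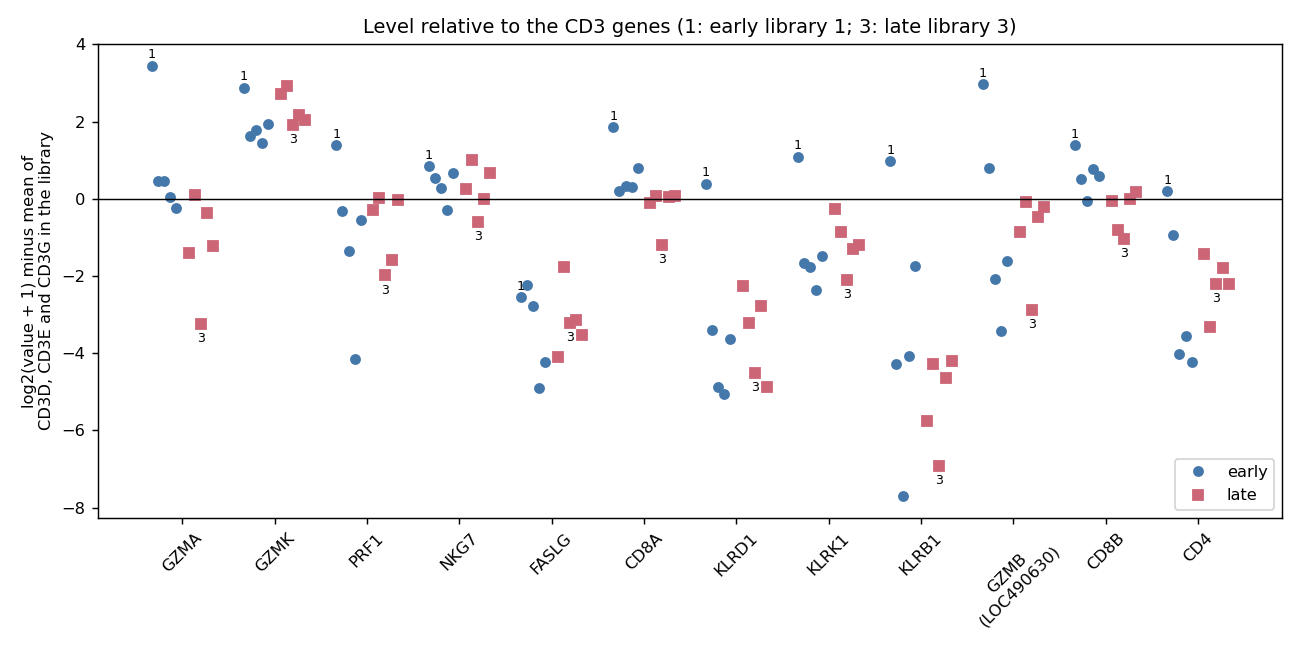
Level of each member, the GZMB row, CD8B and CD4 relative to the CD3 genes of the same library (y axis, log2 units, 0 means equal to the mean of CD3D, CD3E and CD3G) in the early (circles) and late (squares) libraries. Early library 1, with the lowest CD3 level, was the highest early library for every gene shown but FASLG, and late library 3 was the lowest late library for 9 of the 12 genes shown.

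Relative to CD3, GZMA showed the largest difference of the members with -2.07 ± 1.18 (SE), a 95% interval from -4.38 to 0.25 and a BY-adjusted p from limma of 0.884. Its relative level lay between -0.23 and 3.45 in early and between -3.24 and 0.09 in late CCH, so that the stages overlapped. CD8A had a relative level of 0.19 to 1.85 in early and -1.19 to 0.08 in late CCH, without overlap. The same separation was seen in 57.9% of all genes tested. GZMK had a relative level of 1.45 to 2.88 in early and 1.90 to 2.91 in late CCH, above the mean of the CD3 genes in all 10 libraries.

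The reference is shared by all genes and was lowest in early library 1, in which the 3 CD3 genes summed to a normalized read count of 15.2 against 116 to 1194 in the other early libraries. Without this library, the relative difference of GZMA was -1.41 ± 0.74 (SE) and that of CD8A -0.63 ± 0.74, and no member was called. The median relative difference of the members was then 0.39, with 4 of 9 lower in late CCH. That of KLRD1 went from -0.22 to 0.70 and that of KLRB1 from -1.80 to -0.71. With the variance of each gene alone, an alternative added after the data had been seen, GZMA (unadjusted p = 0.0466) and CD8A (unadjusted p = 0.0475) were the 2 members at or under 0.05 in the linear model with limma, and none was called after adjustment.

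Late library 3 was the lowest late library in 8 of the 9 members, which held for 23.1% of all genes tested. The members lay below the mean of the other 4 late libraries by a median of -1.55 on the log2(value + 1) scale, from -2.85 for GZMA to -0.43 for FASLG, and the GZMB row by -2.80. The median over all genes tested was 0.02. The 7 T-cell markers differed by a median of -0.27, and late library 3 was lowest in 2 of them. All 5 B-cell markers, among them MS4A1, CD79A, CD79B and PAX5, were highest in late library 3, by a median of 3.24. This library was highest for 2879 of all 12397 genes tested. MS4A1 had 576 normalized reads there against 18.9 to 150.3 in the other late libraries. Markers of some other cells were also lower in late library 3, by a median of -3.86 for 3 neutrophil, -2.22 for 4 keratinocyte and -0.44 for 5 macrophage markers, in each list for all genes. Of all 12397 genes tested, 6016 were lower. The remaining lists went both ways, with a median of 0.61 for 2 NK, 0.76 for 2 plasma cell and 0.02 for 7 Langerhans and dendritic cell markers. It was -0.82 for 4 mast cell and -0.07 for 2 helper and regulatory T-cell markers, and TCF4 had 0.23. The part of these cell types in the members' values was not tested. Without late library 3, the log2FC of the members between the stages lay between 1.71 for GZMA and 3.81 for GZMK, and KLRK1 was the member called.

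**Figure D4:**
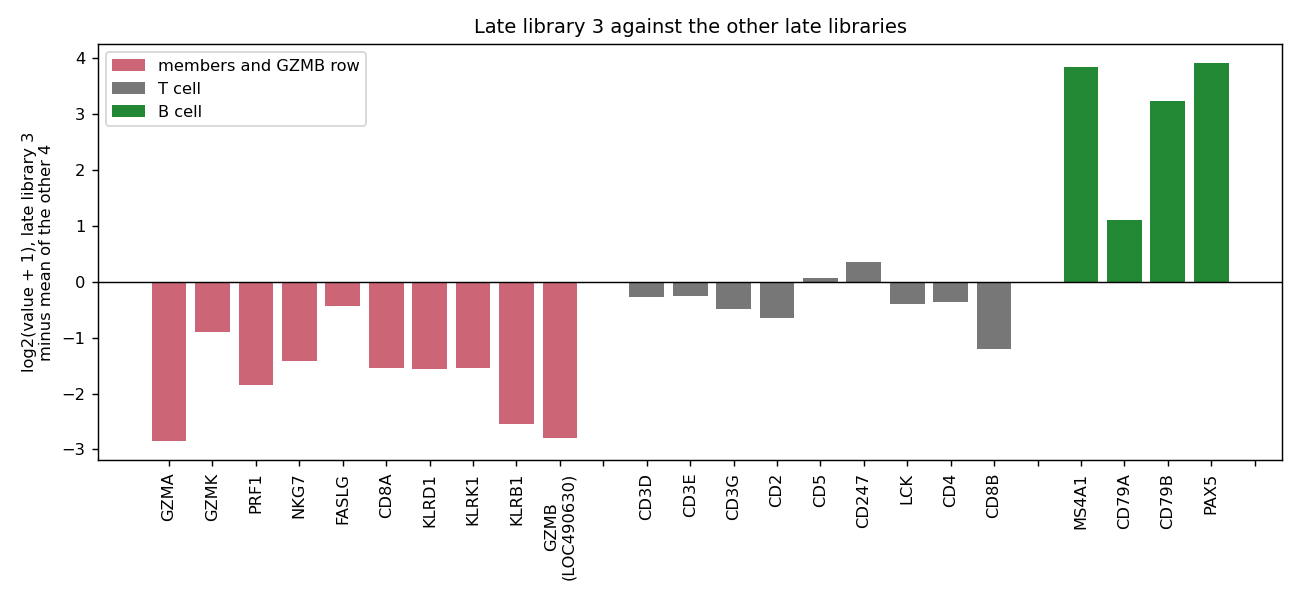
Difference of late library 3 from the mean of the other 4 late libraries in log2(value + 1) (y axis) for the 9 members and the GZMB row (red), T-cell genes with CD4 and CD8B (gray) and 4 B-cell markers (green). All red bars lie below 0, from -2.85 for GZMA to -0.43 for FASLG, and the green bars lie between 1.11 and 3.92.

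The other genes of the killing pathway were taken from 6 lists of 52 genes in all, of which 47 had a row and 43 passed the filter. EOMES and SLAMF7 were called, both higher in late CCH (1.06% of all genes tested), and no gene of these lists was called lower. Without regard to multiple testing, 22 of the 43 genes were higher and 4 lower at a p of at most 0.05 (limma), against 15.6% and 15.3% of all genes tested. Their median log2FC was 0.62.

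The 5 tested genes of granule content and maturation had a median log2FC of 0.71, and none was called. CTSW, a cathepsin of killer lymphocytes, had the highest log2FC with 2.56 ± 0.72 (SE, BY-adjusted p = 0.314, limma). SRGN, the proteoglycan that packs granzymes and is made by many blood cells, had the lowest with 0.02 ± 0.34 (SE), from means of 2311 and 1997 normalized reads. GZMM and GNLY had no row under their symbols. The 8 genes of granule transport and release, which are used for vesicles in many cell types, had a median log2FC of 0.05 and no call. LYST, a regulator of lysosome-related organelles, was highest with 0.90 ± 0.21 (SE, BY-adjusted p = 0.133, limma) and AP3B1, a subunit of a vesicle adaptor complex, was lowest with -0.35.

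Of the other killer receptors and their adaptors, 10 of 14 were tested, with a median log2FC of 1.42. SLAMF7, a receptor of the SLAM family on NK cells and activated lymphocytes, had 7.62, 43.7, 107, 48.0 and 21.5 normalized reads in early and 346, 228, 159, 361 and 276 in late libraries 1 to 5. Every late value lay above every early value. SLAMF7 rose by 2.95 ± 0.54 on the log2 scale (SE, BY-adjusted p = 0.0495, limma). Among the 10 leave-one-out fits, 1 called it. CD244, another receptor of this family, had the lowest log2FC with -1.24 ± 0.45 (SE, BY-adjusted p = 0.837, limma).

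A pair of receptor adaptors had differences of opposite sign, and neither was called. HCST, the signaling partner of KLRK1, had a mean of 35.9 ± 25.8 in early and 158 ± 49.8 normalized reads in late CCH (SD, n = 5 each), a log2FC of 2.40 (BY-adjusted p = 0.0760, limma). TYROBP, which serves receptors of NK cells and of myeloid cells, had 3520 ± 580 in early and 2003 ± 388 in late CCH, a log2FC of -0.82 (BY-adjusted p = 0.0805, limma). Both were chosen after their values had been seen.

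NK cells were assessed with 6 markers, of which KLRC1 and FCGR3A had no row under their symbols. NCR1, the receptor that defines NK cells, had no read in any early library and 11 reads over the late ones, in libraries 2 and 4 only. NCR3 had 19 early and 37 late reads and did not pass the filter. KLRF1 had a log2FC of -0.42 and NCAM1 of 1.29, both without a call (BY-adjusted p = 1, limma). The 4 markers with a row summed to 5.71 to 84.1 normalized reads in early and 25.9 to 68.8 in late CCH, so that the late sums lay within the range of the early ones. The part of NK cells in the members' values was not tested.

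The death receptor route beyond FASLG comprised 9 genes, all tested and none called, with a median log2FC of 0.62. BID, the link from death receptors and granzyme B to mitochondria, had the lowest with -1.16 ± 0.32 (SE, BY-adjusted p = 0.318, limma). The 3 serpins that inhibit granzymes or related proteases had a median log2FC of 0.39 and no call. SERPINB9, the inhibitor of granzyme B, was highest with 0.54 and SERPINB1 lowest with -0.57.

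The effector cytokines and their regulators had the highest median of the 6 lists. All 8 tested genes were higher in late CCH at an unadjusted p of at most 0.05 (limma), with a median log2FC of 2.32. EOMES, a transcription factor of killer lymphocytes, was called with an increase of 3.42 ± 0.56 on the log2 scale (SE, BY-adjusted p = 0.0331, limma), in 3 of the 10 leave-one-out fits as well. CCL5, a chemokine released by killer cells, had the highest log2FC with 3.48 ± 0.90 (SE, BY-adjusted p = 0.223, limma), and PRDM1, a factor of late lymphocyte differentiation, the lowest with 1.03. XCL1 and RUNX3 had no row under their symbols, and ZNF683 did not pass the filter.

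**Figure D5:**
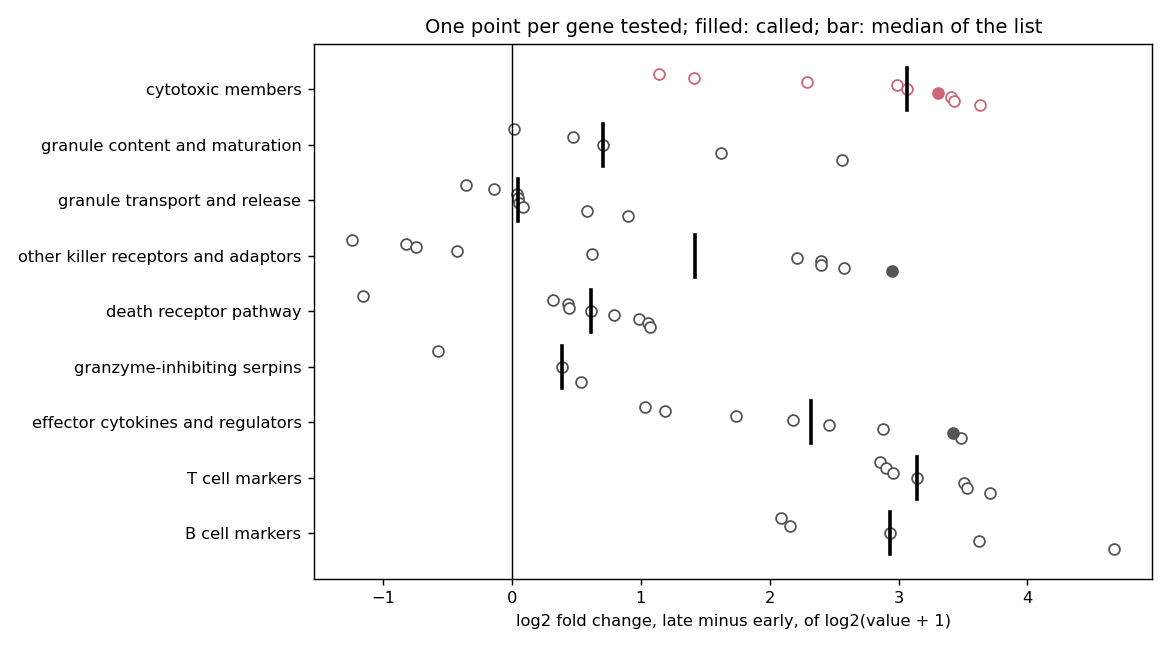
Log2FC of late minus early CCH (x axis, log2(value + 1) scale) for each tested gene of the cytotoxic members, the 6 pathway lists and the T-cell and B-cell markers (y axis). Filled points are the called genes KLRK1, SLAMF7 and EOMES and bars are the medians, 3.06 for the members, 3.14 for the T-cell markers and 2.93 for the B-cell markers.

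Marker lists of other cells were set beside the members. All 7 T-cell markers were higher in late CCH with a median log2FC of 3.14, from 2.86 for CD2 to 3.71 for CD5. All 5 B-cell markers were higher with a median of 2.93, with the highest log2FC of 4.67 for CD79B, and no gene of either list was called. CD4, the coreceptor of helper T cells, had 5.71, 66.1, 23.5, 19.7 and 1.07 normalized reads in early and 298, 56.1, 127, 240.3 and 177 in late libraries 1 to 5, and its log2FC was 3.52 ± 0.79 (SE, BY-adjusted p = 0.121, limma). Of the 7 Langerhans and dendritic cell markers, all were lower in late CCH, from -3.80 for CD1A8 to -0.13 for ITGAX on the log2FC scale, and FCER1A (-2.47) and FLT3 (-2.89) were called (BY-adjusted p = 0.0401 and 0.0434, limma). No marker of the remaining cell types was called. The median log2FC was 0.30 for 5 macrophage markers, from -0.88 (MRC1) to 1.46 (C1QA), and -1.12 for 4 keratinocyte markers, from -1.38 (KRT1) to -0.88 (KRT10). It was -0.75 for 3 neutrophil markers, from -1.19 (S100A8) to 1.47 (CSF3R), and -0.40 for 4 mast cell markers, from -2.14 (CPA3) to 0.92 (CMA1). The 2 plasma cell markers tested, XBP1 and JCHAIN, had log2FC values of -0.17 and 0.39. FOXP3, the factor of regulatory T cells, had 2.94, and TCF4 was the only marker of plasmacytoid dendritic cells tested, with 1.64. The part of these cells in the members' values was not tested.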

How the data were processed

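QuantSeq 3′ libraries of 5 early and 5 late CCH were compared. According to the study's methods and the submitters' processing notes, the authors trimmed reads with Cutadapt, aligned them with STAR to CanFam3.1, counted them with featureCounts in 2 rounds, the latter with genes extended downstream, and split multi-mapped reads evenly, which may affect granzyme and KLR genes with similar copies. Versions and the strand setting are not given in the sources used here. The deposited signal is the read count of a gene divided by 1 size factor per library. Every one of the 166096 values above 0 (100%) was the worth of 1 read times a whole number. No fraction of a read, as an even split can leave, was thus seen, and the study's methods state no rounding of the counts. The 11 columns that match no sample were not used.

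Log2(value + 1) was fitted with limma 3.58.1 (trend; R 4.3.3) over the 12397 genes that reached 10 in 5 or more libraries, without covariates, with BY adjustment over all of them. Intervals are 95%. The fit was also run on simulated counts drawn independently for each gene. These hold no variation shared between genes, such as that of early library 1 or late library 3, and do not test the fit for it. Fold changes of low genes are understated by the pseudocount of 1. The alternatives included edgeR 4.0.16 and DESeq2 1.42.0 on the recovered reads. The log2FC is a difference of mean logs, in which low early libraries weigh more than in a ratio of means. DESeq2 gave 2.27 for FASLG against 3.40 with limma, and 2.87 for GZMK against 3.63. Of the members only KLRD1 (3.36 against 2.99) and KLRB1 (1.58 against 1.41) had a higher log2FC with DESeq2. In the main comparison the p-values measure the spread between these tumors, with limma drawing each variance toward a trend over all genes. Relative to CD3, that trend set the SE, so that those p-values do not measure the spread of each gene by itself. The members and lists were chosen with earlier results of these data known. Named are all members, the called, highest and lowest genes of each list, the 5 nearest genes by correlation, the CD3 genes and CD4, except for some genes that are not reported here.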

Additional observations from a re-analysis of the deposited data

How the results depend on the processing

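No paired analysis was possible because no replicate numbers are given with the columns, and the fit with a replicate block was not run. The sources used here also state no pairing of early with late tumors. Samples that share a replicate number came from dogs of different ages wherever both ages are given. The stages were therefore compared as independent groups. The log2FC of each of the 9 members and of the GZMB row stayed positive under all 20 alternatives, from 0.63 (GZMA) to 4.18 (GZMK). Of all genes tested, 269 were called in the main comparison. BH adjustment gave 1121 genes, 7 members and 13 pathway genes, since BY is the stricter adjustment by construction. The edgeR quasi-likelihood test called 177 genes, 0 members (8 with an unadjusted p of at most 0.05) and 0 pathway genes (25 unadjusted). Of all 12397 genes tested, 3753 had an unadjusted p of at most 0.05 in this edgeR test, in either direction. The DESeq2 Wald test called 810 genes, 4 members (GZMK, PRF1, KLRD1 and KLRK1) and 5 pathway genes. A pseudocount of 0.5, and no filter on low values, each left 1 pathway gene (EOMES). Leaving out 1 library gave 49 to 260 genes, 0 to 3 members and 0 to 4 pathway genes. The 49 genes came without early library 5 and the 3 members (KLRK1, GZMK and PRF1) without early library 3. The causes of these changes were not tested. TMM scaling gave 263 genes. Column total scaling gave 264, with 169 higher and 95 lower in the late tumors, against 131 and 138 with the deposited scaling, and the median log2FC of all genes was then 0.09. Relative to CD3, 0 members were called by limma in the main fit or any alternative, among them CD3E alone and 4 other T-cell genes as the reference. With the latter, GZMA had an unadjusted p of 0.0312 (limma), as KLRB1 had 0.0258 without early library 3. The SE of the main fit relative to CD3 was too large for a call at the differences seen in the members. Reads limit FASLG, KLRD1 and KLRB1, with 101, 43 and 45 early reads.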

Other observations

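The balance of the granzymes was looked at after their values had been seen, so that no test is given. GZMK had the highest log2FC of the members (3.63) and GZMA the lowest (1.14), so that a lower late ratio follows from the choice of this pair. The ratio of the normalized read counts of GZMA and GZMK lay between 0.219 and 1.5 in the early libraries and between 0.0279 and 0.171 in the late ones, without overlap. The share of other gene pairs without overlap was not determined. In log2 units, GZMA minus GZMK was -1.09 ± 1.01 in early and -3.58 ± 1.06 in late CCH (SD, n = 5 each). Late library 3 had the lowest ratio of all libraries and early library 1 the highest. The ratio of PRF1 to CD8A lay between 0.0424 and 0.714 in early and between 0.324 and 0.957 in late CCH, and that of CD8A to CD4 between 2.20 and 62 in early and between 2.05 and 10.8 in late CCH, each with overlap. The ratio of 62, in early library 5, rested on a normalized read count of CD4 of 1.07, the value of 1 read there. The next highest early ratio was 21.3, in early library 3. GZMH, a granzyme close to GZMB, was also low in late library 3, where it had 2.91 normalized reads against 11.9 to 71.3 in the other late libraries. The value of 2.91 is the worth of 3 reads, and GZMH had 37 early and 146 late reads in all.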
